A study of Rattus norvegicus with 4 samples.

Results

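Immediate early response genes are transcribed within minutes of a stimulus, without new protein synthesis, and are used in the retina and elsewhere as markers of recent cell activity or stress. The set comprised Fos, Fosb, Jun, Junb, Jund, Egr1, Ier2, Dusp1, Atf3 and Nr4a1, chosen by gene symbol. Of these 10 genes, 9 had a row among the 14485 gene names with values, and Fosb had none. RNA sequencing had been run on 2 tissues, eye and retina, of Long Evans rats with a wild-type genotype, with RNA of 5 rats pooled per library. Long Evans is a strain with pigmented eyes. The labels list 2 technical replicates per tissue but 1 column of values was analysed per tissue, called its library here, so differences could not be checked against replicates and carry no p-value. Age, sex, time of day and the interval between death and RNA extraction are not given in the labels.

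As background, growth factors, calcium and cyclic AMP act through the MAP kinase cascade and other kinases on factors already bound at these promoters, among them the serum response factor with its ternary complex partners (Elk proteins) and CREB. The products are mostly short-lived transcription factors. Fos and Jun proteins pair to form AP-1, Egr1 is a zinc finger factor, Nr4a1 is an orphan nuclear receptor, Atf3 is a stress-induced factor that also pairs with Jun proteins, Ier2 is a small nuclear protein, and Dusp1 is a phosphatase that inactivates MAP kinases and so limits the response.

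The values were taken as RPKM, that is reads divided by gene length and by the size of the library (28071917 reads in eye and 51944762 in retina), and their 95% intervals come from whole reads recovered from the values. These intervals cover counting error only. Marker genes for other ocular cell types were set beside the label of the eye library. As lists were chosen with earlier results of these data known, this is not an independent check. Of the tested markers, 17 of 18 for lens, 11 of 11 for cornea and conjunctiva, 10 of 10 for stroma, 10 of 10 for skeletal muscle and 7 of 7 for pigment cells exceeded their retina value at least 2-fold in the eye library, whereas 7 of 11 rod markers were at least 2-fold lower. Other retinal markers were less uniform. For retinal neurons 3 of 15 were at least 2-fold lower in eye and 0 higher. For Mueller glia 0 of 7 were lower and 2 higher. None of the markers with a row was at 0 in either library. The sample descriptions, which name retina mRNA for both tissues, do not set the libraries apart. In bulk RNA, fewer cells of a type and less RNA per cell cannot be told apart.

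With the values as deposited, most of the 9 genes stood at nearly the same level in both libraries. Junb alone was higher in the eye library by 2-fold or more, which was the case for 17.8% of all 13259 tested genes. None was at least 2-fold lower there, against 7.95% of all tested genes. Differences in that direction had a narrow range. At 4-fold, 0.0905% of all tested genes were lower in eye and 9.07% higher. The rod markers themselves had a median log2 fold of -1.03 and a lowest one of -1.21. Genes that reached 1 RPKM in at least 1 of the libraries were tested, among them all 9, and folds for these counts were taken after adding 0.1 to both values. The median log2 fold (eye over retina) of the 9 genes was -0.04, beside -0.01 for all tested genes. Differences below 1.5-fold were found for 7 of the 9, beside 51.5% of all tested genes, and below 1.2-fold for 5 of the 9, beside 25.1%. These counts moved with the scaling of the libraries: scaled to equal summed values, 3 of the 9 differed by less than 1.5-fold (31.6% of all tested genes) and 0 by less than 1.2-fold (13.7%), and with totals counted without the lens list 7 and 3 did (52.7% and 26.0%). The summed level of the 9 genes was 150.2 RPKM in eye and 147 RPKM in retina.

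**Figure D1:**
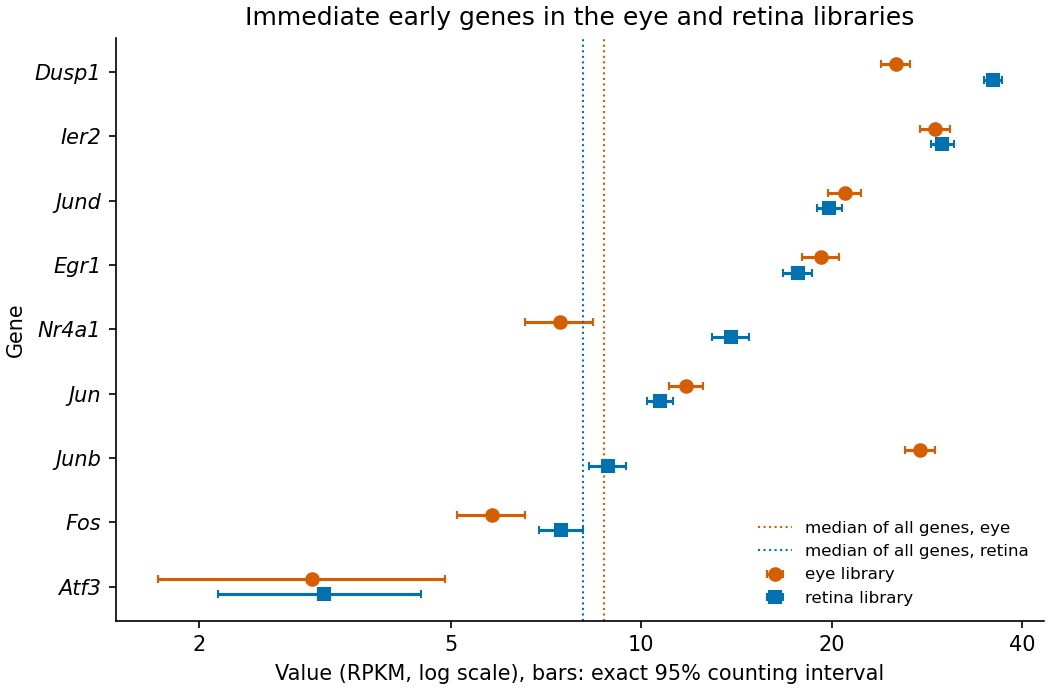
RPKM values (log scale) of the 9 immediate early genes in the eye library (circles) and the retina library (squares), with exact 95% counting intervals as bars and the median of all genes in each library as dotted lines. Junb stood at 27.6 in eye and 8.85 in retina, and the intervals of both libraries overlapped for Ier2, Jund, Egr1, Jun and Atf3.

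Among the Jun genes, which encode the obligate partners of Fos proteins in AP-1, the levels differed by member. Junb was at 27.6 RPKM in the eye library (interval 26.2 to 29.1, 1383 reads) and at 8.85 RPKM in the retina library (8.26 to 9.48, 821 reads). The eye level of Junb was thus 3.12-fold that of retina (interval 2.86 to 3.40). In the order of all genes, Junb lay above 81.7% of them in eye and above 52.2% in retina.

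Jun itself, the founding member, was at 11.8 RPKM in eye (1022 reads) and 10.7 RPKM in retina (1723 reads), and the fold of 1.10 had an interval (1.01 to 1.19) just above equality. Jund, which is expressed more constitutively than the others and induced less, was at 21.0 RPKM in eye and 19.8 RPKM in retina. Its fold of 1.06 had an interval that included equality (0.980 to 1.14). Both genes stood on the same side of the median of all genes in each library, well above it in the case of Jund.

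The make-up of the Jun family could be compared without regard to how the libraries were scaled against each other, since each share is taken within a library. Junb made up 45.7% of the summed RPKM of the 3 Jun genes in eye (interval 44.0 to 47.4) and 22.5% in retina (21.2 to 23.8). Jund made up 34.8% in eye and 50.3% in retina (48.8 to 51.8), and Jun 19.5% and 27.2%. Junb was therefore the most abundant Jun gene in the eye library and the least abundant in the retina library. The ratio of Junb to Jun was 2.35 in eye (2.16 to 2.55) and 0.826 in retina (0.759 to 0.898). By contrast the ratio of Jund to Jun was 1.78 in eye (1.63 to 1.94) and 1.85 in retina (1.73 to 1.98), with overlapping intervals. The ratios described here and below were chosen after the values were seen.

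**Figure D2:**
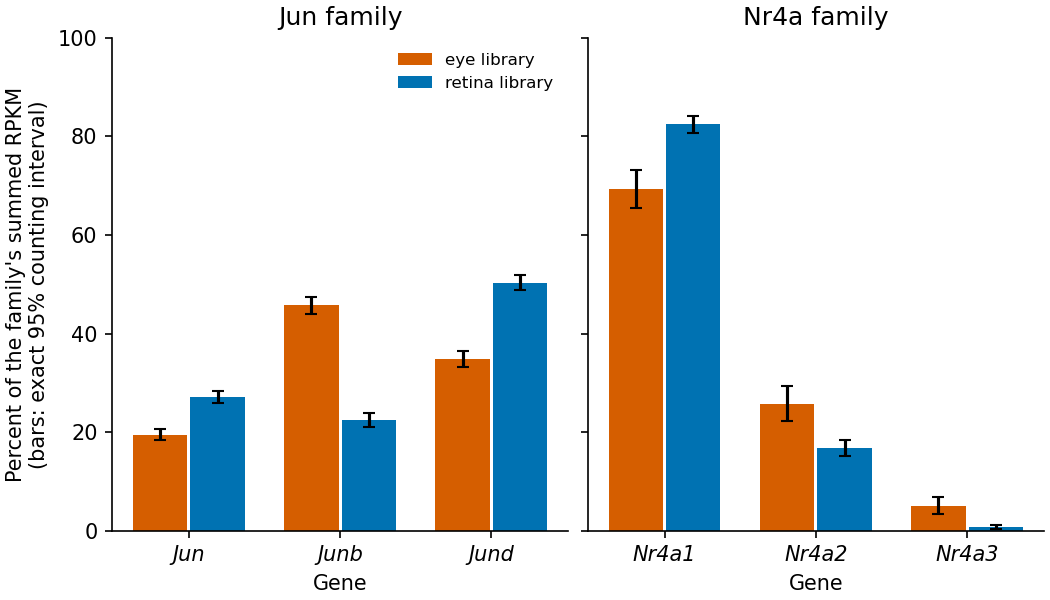
Share of each gene in the summed RPKM of its family (percent), in the eye library and the retina library, for the Jun genes (left) and the Nr4a genes (right), with exact 95% counting intervals as bars. Junb held 45.7% of the Jun family in eye and 22.5% in retina, and Nr4a1 held 69.4% and 82.5% of its family.

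Fos, the AP-1 subunit that cannot bind DNA without a partner, was among the less abundant of the set. It was at 5.81 RPKM in eye (5.12 to 6.56, 259 reads) and 7.48 RPKM in retina (6.90 to 8.09, 617 reads), 1.29-fold higher in retina (1.11 to 1.49). In both libraries Fos lay below the median of all genes (8.75 in eye and 8.11 in retina). The ratio of Jun to Fos was 2.03 in eye (1.77 to 2.33) and 1.43 in retina (1.31 to 1.57), and that of Junb to Fos was 4.75 and 1.18. Atf3, which pairs with Jun proteins, was the least abundant member, at 3.02 RPKM in eye and 3.16 RPKM in retina. Its smallest fitting reads were 16 and 31, at a fitted length of 189 bases, so the true reads may be a multiple of these. The interval of its retina over eye fold, 1.05, ran from 0.555 to 2.05, the widest of the set. This interval may be wider than the true reads would give.

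Nr4a1 (Nur77) showed the largest difference toward the retina library. It was at 7.44 RPKM in eye (6.56 to 8.40, 260 reads) and 13.9 RPKM in retina (896 reads). The retina level was 1.86-fold the eye level (interval 1.62 to 2.15), short of the 2-fold threshold although the interval reached past it. Its paralogs, named here after their values were seen, were less abundant in both libraries. Nr4a2 (Nurr1) was at 2.75 RPKM in eye and 2.81 RPKM in retina. Nr4a3 (Nor1) was at 0.534 RPKM in eye and 0.125 RPKM in retina, below the minimum in both, and its eye value was 4.28-fold the retina value (2.32 to 8.24, 37 and 16 reads). Nr4a1 made up 69.4% of the family's summed RPKM in eye (65.4 to 73.1) and 82.5% in retina (80.7 to 84.2).

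Egr1, a zinc finger factor induced by synaptic activity and growth factors, was at 19.2 RPKM in eye (824 reads) and 17.7 RPKM in retina (1404 reads), with a fold of 1.09 (0.995 to 1.18). Egr3, its only paralog with a row, had 3 and 1 as its smallest fitting reads in eye and retina. Its values were below the minimum in both, and no comparison is made. The ratio of Nr4a1 to Egr1 was 0.387 in eye (0.335 to 0.445) and 0.783 in retina (0.719 to 0.852). That of Egr1 to Fos was 3.31 in eye (2.88 to 3.82) and 2.37 in retina (2.15 to 2.61).

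Ier2 and Dusp1 were the most abundant of the set in retina. Ier2 was at 29.1 RPKM in eye (27.5 to 30.8, 1246 reads) and 29.9 RPKM in retina (28.7 to 31.2, 2368 reads), and it lay above 82.9% of all genes in eye and above 83.0% in retina. Dusp1, the phosphatase that acts on MAP kinases, was at 25.2 RPKM in eye (23.9 to 26.6, 1365 reads) and 35.9 RPKM in retina (34.8 to 37.1, 3596 reads). The retina level of Dusp1 was 1.42-fold the eye level (1.34 to 1.52). The ratio of Dusp1 to Fos was 4.35 in eye (3.80 to 4.98) and 4.81 in retina (4.41 to 5.24), overlapping, whereas that of Dusp1 to Junb was 0.914 in eye and 4.06 in retina.

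Ordered by level, the eye library had Ier2, Junb, Dusp1, Jund, Egr1, Jun, Nr4a1, Fos and Atf3, from 29.1 down to 3.02 RPKM. In that order the counting intervals of Ier2 and Junb, of Junb and Dusp1, and of Jund and Egr1 overlapped. The retina library had Dusp1, Ier2, Jund, Egr1, Nr4a1, Jun, Junb, Fos and Atf3, from 35.9 down to 3.16 RPKM, and no neighbours in that order had overlapping intervals. Fos and Atf3 closed both orders. The spread between rats is not known, so the intervals do not show whether the orders would hold in another pool.

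**Figure D3:**
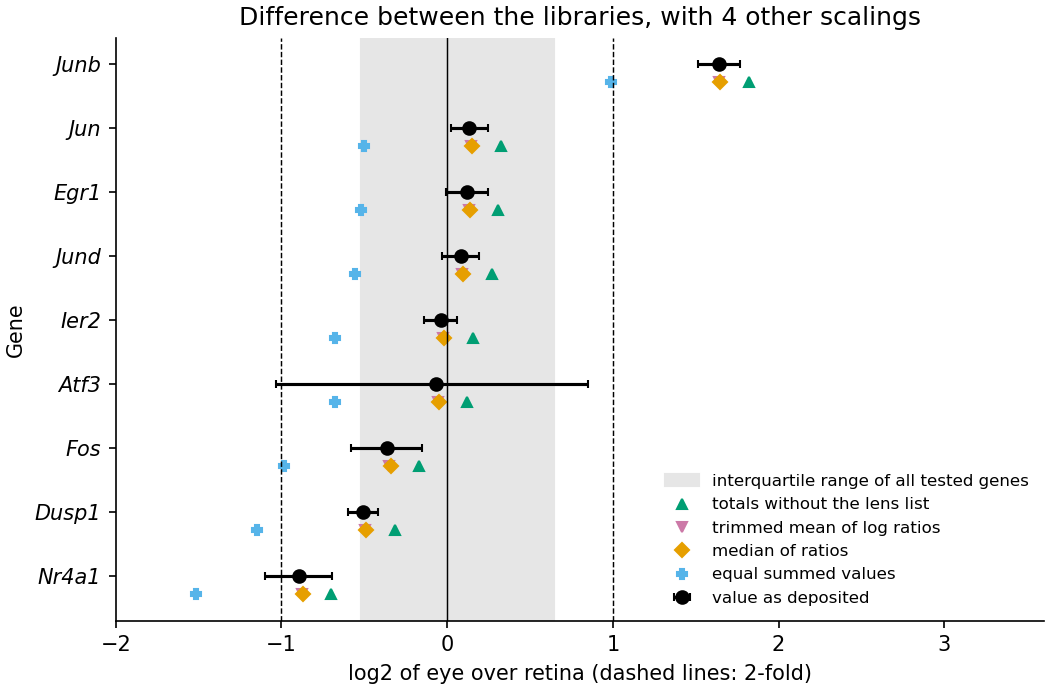
log2 of the eye over the retina value for the 9 genes, as deposited (black, bars: exact 95% counting interval) and under 4 other scalings of the libraries (with 0.1 added). Dashed lines mark 2-fold and the grey band the interquartile range of all tested genes. Points for the median of ratios and for the trimmed mean nearly coincide, Junb stays above 0 throughout and is at 0.99 with equal summed values, and Nr4a1, Dusp1 and Fos stay below 0.

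The direction of the small differences depended on how the libraries were scaled. The lens list held 35.0% of the summed values of the eye library and 0.587% of those of retina, and equal summed values moved every log2 ratio by -0.64 before 0.1 was added. The value of Junb was higher in eye, and those of Nr4a1, Dusp1 and Fos higher in retina, under all 4 other scalings. The log2 fold of Junb ranged from 0.99, with equal summed values and just under the threshold, to 1.82 with totals counted without the lens list. With equal summed values Nr4a1 (-1.52) and Dusp1 (-1.15) were at least 2-fold lower in eye and Fos (-0.99) was just short of it. In that scaling 10.6% of all tested genes were higher in eye by 2-fold or more and 32.8% lower, and counts under equal summed values are to be read against these shares. Jun, Jund, Egr1, Ier2 and Atf3 changed sign between scalings, so no direction is given for them. The median of the 9 genes minus that of all tested genes was -0.03 as deposited and -0.01 with equal summed values.

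Markers of the other eye tissues differed between the libraries together with Junb. The summed level of the cornea and conjunctiva markers was 4994 RPKM in eye and 12.5 RPKM in retina, that of stroma markers 4381 and 341, that of skeletal muscle markers 3150 and 13.3, and that of immune markers 171 and 41.9. Endothelial markers were at 113 and 58.9, and 4 of 7 of them, like 6 of 8 tested immune markers, were higher in eye by 2-fold or more. The summed level of rod markers was 19404 RPKM in eye and 38370 in retina, a difference in the direction of Nr4a1, Dusp1 and Fos. Retinal neuron markers summed to 1504 and 2628 RPKM, in that direction too. Mueller glia markers went the other way in sum only, at 1159 RPKM in eye and 995 RPKM in retina. Of these 7 markers 2 had a higher value in eye, and their median log2 fold was -0.22. The part of these tissues in the values of any immediate early gene was not tested.

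No source used here says whether counting used strand, so reads of a neighbouring gene may be counted for a member. The submitters used build rn4, and the neighbours in its annotation may differ from those given here. In the GRCr8 gene order the protein-coding neighbours of Junb are Hook2 (7.71 RPKM in eye and 13.2 in retina) and Prdx2 (266 and 234), neither of them 2-fold apart. Those of Fos are Tmed10 (85.9 and 55.9) and Jdp2, an AP-1 repressor that was at 30.1 RPKM in eye and 9.33 RPKM in retina. Fggy beside Jun (6.74 and 2.52) and Etf1 beside Egr1 (31.0 and 12.9) were also at least 2-fold higher in eye. No neighbour with a row was at least 2-fold lower there. Nr4a1 lies between Tamalin (2.85 and 1.38) and Atg101 (25.5 and 29.9). Dusp1 lies beside Ergic1 (25.9 and 21.7) and Neurl1b, which had no row. Of the 9 members, Atf3 is the one that overlaps another gene of the reference, Garin4, which had no row.

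Promoter sequence was available for 6 of the 9 genes (Nr4a1, Dusp1, Jund, Egr1, Junb and Ier2), from RefSeq on build GRCr8, as the 250 bases before the annotated start. The core TGACG of the cyclic AMP response element, to which CREB and ATF proteins bind, occurred on either strand in 6 of 6 of these windows, beside 26.0% of the 10938 windows of genes in the files and 18.2% of all 33469. The full palindrome TGACGTCA, which contains that core on both strands, occurred in 3 (Dusp1, Jund and Ier2), beside 2.66% and 1.59%. A CArG box, the site of the serum response factor, was found for Egr1 and for no other of the 6, beside 1.23% of the windows of genes in the files, and TATAAA for Junb, beside 6.93%. The pattern TGANTCA (N is any base), which is wider than the AP-1 site, was in none of the 6, beside 4.63%. The GC box GGGCGG was in 3 (Nr4a1, Dusp1 and Jund), beside 55.8%. The window of Fosb, the member without a row, was searched too and is not among the 6. It held TATAAA on the opposite strand and no TGACG core. A match in letters describes the sequence and is not evidence that the site is bound. The windows of the 3 members with the largest differences (Junb, Nr4a1 and Dusp1), and of Ier2, whose levels overlapped between the libraries, are printed from 5′ to 3′ on the gene's strand, with that core on either strand (TGACG or CGTCA) in capitals.
Junb, chr19:40080876-40081125, plus strand: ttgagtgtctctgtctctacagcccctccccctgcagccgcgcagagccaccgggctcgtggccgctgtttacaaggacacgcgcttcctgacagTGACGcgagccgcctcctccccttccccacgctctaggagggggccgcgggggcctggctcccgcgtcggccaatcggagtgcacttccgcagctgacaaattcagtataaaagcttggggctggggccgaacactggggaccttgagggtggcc
Nr4a1, chr7:134259888-134260137, plus strand: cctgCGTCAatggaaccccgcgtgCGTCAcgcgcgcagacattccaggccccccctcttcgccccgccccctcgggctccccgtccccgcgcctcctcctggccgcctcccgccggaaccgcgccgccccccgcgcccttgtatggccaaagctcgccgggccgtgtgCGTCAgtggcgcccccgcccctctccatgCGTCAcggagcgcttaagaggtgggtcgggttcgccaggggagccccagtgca
Dusp1, chr10:17184603-17184852, plus strand: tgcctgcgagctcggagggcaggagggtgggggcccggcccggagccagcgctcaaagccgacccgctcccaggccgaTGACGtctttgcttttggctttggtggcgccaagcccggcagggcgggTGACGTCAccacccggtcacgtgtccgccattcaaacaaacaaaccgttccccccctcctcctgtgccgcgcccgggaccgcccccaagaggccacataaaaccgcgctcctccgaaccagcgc
Ier2, chr19:40399123-40399372, plus strand: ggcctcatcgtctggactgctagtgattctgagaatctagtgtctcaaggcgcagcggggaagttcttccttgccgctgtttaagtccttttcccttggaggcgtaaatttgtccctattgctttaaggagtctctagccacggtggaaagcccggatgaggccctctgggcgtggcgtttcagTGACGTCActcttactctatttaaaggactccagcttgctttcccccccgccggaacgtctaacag

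In these windows the single core of Junb begins 155 bases before the start, and its TATAAA 49 bases before it. Nr4a1 has 4 cores, of which the nearest lies 53 to 49 bases before the start. The palindrome lies 124 to 117 bases before the start in Dusp1 and 66 to 59 bases before it in Ier2. The palindrome was found in neither the Junb nor the Nr4a1 window.

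Genes upstream of the response were described by lists of kinases and of promoter-bound factors. Of 37 kinases and MAP kinase cascade genes, all tested, 2 were at least 2-fold higher in eye (Map2k3 and Mapkapk3). Another 3 were at least 2-fold lower (Map2k7, Camk2b and Mapk11). As deposited, 17.8% of all tested genes were higher and 7.95% lower. The median log2 fold of these kinase genes was -0.15, beside -0.01 for all tested genes. Map2k3, an activator of p38, was at 22.4 RPKM in eye and 7.66 RPKM in retina. Mapk11, a p38 isoform, was at 3.36 RPKM in eye and 10.6 RPKM in retina, and Camk2b, a calcium-dependent kinase of neurons, at 33.8 and 74.4. Among the most abundant of the list were Map2k2, with nearly equal values (77.8 and 77.5 RPKM), and Camk2d (45.2 and 76.9). Under the scaling to equal summed values 0 kinase genes were higher and 13 of 37 lower, beside 10.6% and 32.8% of all tested genes.

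Of 17 tested promoter-bound regulators, 1 was at least 2-fold higher in eye and 2 lower, beside 17.8% and 7.95% of all tested genes. Their median log2 fold was -0.22. Elk3, a ternary complex factor also known from endothelium, was at 8.56 RPKM in eye and 1.22 RPKM in retina, 7.03-fold higher in eye (6.09 to 8.13). Mef2d, a transcription factor needed by photoreceptors in mouse, was at 39.3 RPKM in eye and 83.7 RPKM in retina, and Crtc1, a CREB coactivator, at 6.66 and 15.3. Crtc2 (14.8 and 28.6) and Mef2c (17.6 and 22.5) were not 2-fold apart. Srf (10.7 and 11.6) and Creb1 (2.56 and 2.99), named for their role after their values were seen, were close to equal in RPKM. The scaling to equal summed values gave 7 lower regulators and 1 higher, beside 32.8% and 10.6% of all tested genes.

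Genes listed as immediate early beyond the 9 were described in the same way, and their induction was not tested. Of 19 tested transcription factors, 8 were at least 2-fold higher in eye and 1 lower (Per1), beside 17.8% and 7.95% of all tested genes. Their median log2 fold was 0.78. Klf4, an epithelial Krüppel-like factor, was at 30.9 RPKM in eye and 0.943 RPKM in retina, 32.7-fold higher in eye (27.1 to 39.8). Maff, a small Maf protein, was at 5.73 and 0.903, Klf2 at 9.61 and 3.34, Cebpb at 8.79 and 3.34, and Klf6 at 12.4 and 4.74 RPKM in eye and retina. Atf4, a factor of the integrated stress response, was the most abundant of the list, at 355 RPKM in eye and 368 RPKM in retina. Id3 was at 78.7 and 51.9 and Id2 at 50.8 and 20.4. Per1, a clock gene also induced by light, was at 8.68 RPKM in eye and 21.8 RPKM in retina, 2.52-fold higher in retina. Of these factors 3 were higher and 1 lower under equal summed values, beside 10.6% and 32.8% of all tested genes.

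Of 28 tested effector genes of the early response, 9 were at least 2-fold higher in eye and 0 lower. The shares of all tested genes were 17.8% and 7.95%. The median log2 fold of the effector genes was 0.39, beside 0.43 for a list of 15 housekeeping genes. With equal summed values these medians were -0.24 and -0.21, beside -0.67 for all tested genes. Cyr61, a matricellular protein, was at 8.36 RPKM in eye and 0.650 RPKM in retina, 12.9-fold higher (9.95 to 16.9). Its relative Ctgf was at 39.8 RPKM in eye and 13.1 RPKM in retina. Zfp36, which destabilises AU-rich mRNAs such as those of early genes, was at 12.7 RPKM in eye and 2.82 RPKM in retina, and its paralog Zfp36l1 at 24.4 and 7.47. Ier3 was at 17.6 and 6.89 RPKM. The 3 genes of the list with the highest mean of both libraries, Btg1 (67.2 RPKM in eye and 55.4 in retina), Sgk1 (49.4 and 41.4) and Rhob (47.7 and 35.6), were not 2-fold apart. After scaling to equal summed values 4 effector genes were higher and 3 lower, beside 10.6% and 32.8% of all tested genes.

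**Figure D4:**
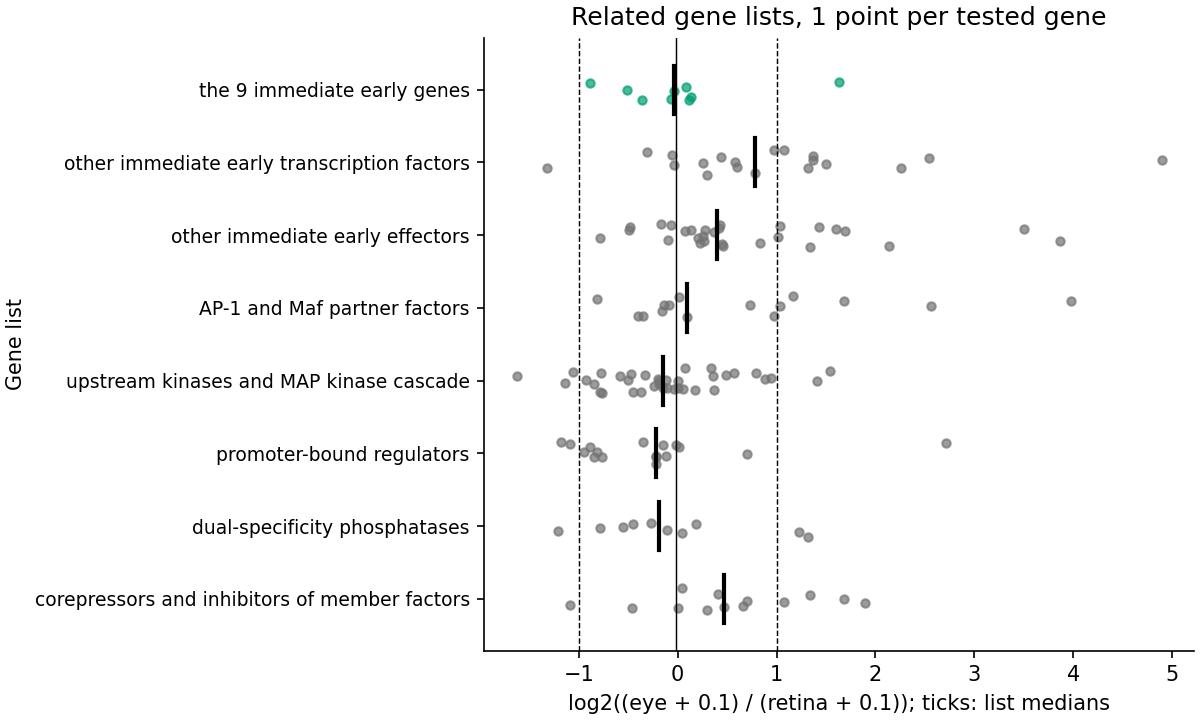
log2((eye + 0.1) / (retina + 0.1)) of each tested gene (points) in the 9 immediate early genes (top, green) and in 7 related lists (grey), with list medians as thick ticks, 2-fold as dashed lines and the median of all tested genes as a solid line. The 9 genes have a median of -0.04, other immediate early transcription factors one of 0.78 and promoter-bound regulators one of -0.22.

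Of 15 tested AP-1 and Maf partner factors, 5 were at least 2-fold higher in eye and 0 lower. The shares of all tested genes were 17.8% and 7.95%. The median log2 fold of the partner factors was 0.09. Maf was at 42.2 RPKM in eye and 7.06 RPKM in retina, 5.98-fold higher in eye (5.50 to 6.52); it is a regulator of crystallin genes in the lens. Jdp2 was 3.22-fold higher in eye (2.86 to 3.64), Nfe2l2 (NRF2) 2.25-fold and Atf1 2.06-fold. Batf2, at 2.94 RPKM in eye and 0.0933 RPKM in retina from 68 and 4 reads, was the other called gene. Ddit3 (39.8 and 43.8), Nfe2l1 (37.3 and 35.0) and Creb3 (31.6 and 33.4) had the highest mean of both libraries in the list, and each differed by less than 1.2-fold. Scaled to equal summed values, 3 partner factors were higher and 2 lower, beside 10.6% and 32.8% of all tested genes.

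Negative regulators were described by other dual-specificity phosphatases and by corepressors and inhibitors. Of 10 tested phosphatases, 2 were at least 2-fold higher in eye (Dusp6 and Dusp22) and 1 lower (Dusp8). The shares of all tested genes were 17.8% and 7.95%. The median log2 fold of the phosphatases was -0.19. Dusp6, an ERK phosphatase, was at 11.4 RPKM in eye and 4.79 RPKM in retina, and Dusp8, which acts on JNK and p38, was 2.32-fold higher in retina. Dusp26 was at 12.9 and 22.3 RPKM, and Dusp3 had a fold of 1.03 (0.897 to 1.19). Equal summed values gave 0 higher and 4 lower phosphatases, beside 10.6% and 32.8% of all tested genes.

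Of 13 tested corepressors and inhibitors, 4 were at least 2-fold higher in eye and 1 lower, beside 17.8% and 7.95% of all tested genes. Their median log2 fold was 0.47, beside 0.43 for the housekeeping genes. With equal summed values it was -0.16, beside -0.67 for all tested genes. Jdp2 and Ier3 were counted in this list too. Spry1, an inhibitor of growth factor signalling, was at 14.6 RPKM in eye and 3.86 RPKM in retina. Nab1, a corepressor of Egr proteins, was at 11.1 RPKM in eye and 5.22 RPKM in retina, beside the nearly equal values of Egr1 itself. Spred3 was the lower gene, at 1.22 and 2.71 RPKM. Under equal summed values 2 of the list were higher and 2 lower, beside 10.6% and 32.8% of all tested genes.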

How the data were processed

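RNA of 5 rats was pooled per library, per the labels' protocols, and the titles gave each sample's tissue. The deposited values are taken as RPKM, a unit inferred from the values because the file headers name none. Per the submitters' processing notes, GSNAP, HTSeq and build rn4 were used; no source used here gives versions, annotation, strand use or how technical replicates were joined. Each file held 14533 rows, 7 of them without a value, and 41 names on more than 1 row (the row with most decimals was kept).

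Library totals were found as the whole numbers that make reads whole in both libraries; whole reads were recovered for 13760 of 13980 genes searched. They are the smallest that fit, so that intervals are if anything too wide. Recovery was tested on simulated data, where reads were scored as right up to a shared multiple. The test therefore cannot show that printed reads are not a fraction of the true reads. Intervals are exact 95% (Poisson for values, Clopper-Pearson for folds and shares). Python 3.11.15, scipy 1.17.1 and matplotlib 3.10.9 were used.

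The comparison was log2((eye + 0.1) / (retina + 0.1)) for genes that reached 1 in at least 1 of the libraries, called at 2-fold, with no test, as each tissue has 1 column of values. Printed folds of single genes carry no added value. All members were named, with the 3 most abundant genes of each list and up to 5 called genes per direction with a value of at least 5. Others were chosen after their values were seen. A few genes taken by this rule are not reported here. The members and lists were chosen with earlier results of these data known. One listed gene, under 2 names, was counted once. Other added values, minimums, fold thresholds and scalings were tried.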

Additional observations from a re-analysis of the deposited data

How the results depend on the processing

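With equal summed values 0 of the 9 immediate early genes were higher in the eye library by 2-fold or more and 2 were lower (Dusp1 and Nr4a1), beside 10.6% and 32.8% of all tested genes, and their median log2 fold was -0.68; with totals counted without the lens list the median was 0.15. These shifts follow from the scaling itself. At a threshold of 1.5-fold 1 was higher (Junb) and 1 lower (Nr4a1), beside 26.6% and 21.9% of all tested genes, and at 4-fold 0 were higher, beside 9.07%. Under the other alternatives (1 or 0.01 added, no minimum or a minimum of 5, a trimmed mean or a median of ratios) Junb was the 1 higher gene and 0 were lower; a minimum of 5 removed Atf3. Shares of recovered reads not divided by length gave Junb 39.7% of the Jun family in eye and 18.5% in retina. No paired analysis was possible because each tissue has a single column of values, and for the same reason no replicate could be left out. A share of the Fos family could not be formed, since Fosb had no row. Recovered reads were fewest for Atf3, followed by Fos and Nr4a1 in the eye library. As these are the smallest reads that fit, they do not settle which gene depth limits most.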
